A study of Mus musculus with 6 samples.

Results

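The genes described here are 9 genes that inflamed gut epithelium is known to induce, taken by name from a table of 7120 genes: Reg3g, Sprr2a1, Lypd8, Tgm2, Duox2, Duoxa2, Cxcl5, Lif and Zfp36. Sprr2a1 has an identical copy in the table, Sprr2a2, and the pair was counted once. RNA came from crypts of the ileum that were cut out by laser microdissection from Methacarn-fixed, paraffin-embedded sections. There were 3 libraries from Tl1a-tg mice and 3 from WT mice, all C57BL/6 and 3 months old. Tl1a-tg mice carry a transgene for TL1A, the TNF-family cytokine that Tnfsf15 encodes; the labels name neither the promoter that drives it nor the cells that express it, and do not say whether each library came from its own mouse. Where a p-value rests on spread between libraries, that spread may therefore be only technical. For some genes the error follows from a ceiling on the dispersion instead, as described below.

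The crypt epithelium answers microbes and cytokines with a set of secreted and membrane-bound defences. Signals from the interleukin 22, interleukin 6 and LIF receptors reach STAT3, while tumour necrosis factor family receptors and microbial sensors reach NF-kB. Their targets include antibacterial proteins (Reg3g, Sprr2a1), the peroxide-producing oxidase DUOX2 with its maturation factor DUOXA2, chemokines for neutrophils (Cxcl5), cytokines (Lif) and the proteins that end the response by destroying cytokine mRNAs (Zfp36).

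The upstream sequences are shown for genes whose values are set against each other below: the Duox2 and Duoxa2 pair, the Sprr2a copies, Reg3g with near-equal fitted means, and Zfp36 and Lypd8, which lie far apart in opposite directions. Each line gives the 100 bases before the annotated start, 5′ to 3′ on the gene's strand, from RefSeq (GRCm38.p6). The authors' own build is not given in the sources used here. Capitals mark matches to the motifs searched.
Duox2 (chr2:122298228-122298327, minus strand): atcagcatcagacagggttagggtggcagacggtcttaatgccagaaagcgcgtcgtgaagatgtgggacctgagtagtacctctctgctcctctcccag
Duoxa2 (chr2:122298800-122298899, plus strand): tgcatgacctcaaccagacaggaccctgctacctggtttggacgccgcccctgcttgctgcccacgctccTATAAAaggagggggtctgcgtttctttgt
Sprr2a1 (chr3:92215735-92215834, plus strand): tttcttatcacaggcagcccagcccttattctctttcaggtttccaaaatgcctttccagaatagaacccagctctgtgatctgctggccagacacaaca
Sprr2a2 (chr3:92250547-92250646, plus strand): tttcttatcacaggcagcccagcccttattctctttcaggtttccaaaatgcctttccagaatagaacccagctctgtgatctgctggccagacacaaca
Reg3g (chr6:78468875-78468974, minus strand): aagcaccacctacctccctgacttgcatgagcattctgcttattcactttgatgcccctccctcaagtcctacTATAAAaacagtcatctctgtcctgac
Zfp36 (chr7:28379229-28379328, minus strand): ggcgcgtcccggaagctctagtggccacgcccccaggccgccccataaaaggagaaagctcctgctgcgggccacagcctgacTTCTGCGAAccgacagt
Lypd8 (chr11:58378932-58379031, plus strand): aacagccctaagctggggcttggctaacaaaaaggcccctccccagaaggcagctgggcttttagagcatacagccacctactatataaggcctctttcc

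The Duox2 and Duoxa2 starts lie 673 bases apart and the genes point away from each other, so that both are read outward from one stretch of DNA. The windows of Sprr2a1 and Sprr2a2, which run from 250 bases before the start to 50 after it, matched at 300 of 300 bases, and Sprr2a3, a further copy not analysed here, matched Sprr2a1 at 272 of the 272 bases their windows share. For 4 motifs, both strands of these windows were searched, which the table held for 7 of the 9 genes (not for Tgm2 and Cxcl5). A TATA motif (TATAAA), held by 13.6% of all 32851 windows, began at position -30 in Duoxa2 and at position -27 in Reg3g, with a reverse-strand match at -161 in Reg3g. A STAT motif (TTCNNNGAA, 8.3% of windows) began at position -17 in Zfp36. The NF-kB consensus (8.46%) began at -123 in Reg3g and -178 in Lif, and an AP-1 motif (TGANTCA, 7.81%) at -168 in Duoxa2 and -228 in Lif. No match overlapped another, and the windows of Duox2, Sprr2a1 and Lypd8 held none of the 4. The window of a further annotated Lypd8 start, not shown above, held none either. Only exact matches to each motif were counted, so a variant of a motif would be missed.

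The deposited expression table does not hold a separate measurement for each library. Any 2 columns of a genotype stand in the same ratio for every gene, so each value is the product of a fitted mean, 1 for each gene in each genotype, and a library factor. Zfp36, for example, is listed at 145, 158 and 112 in Tl1a-tg replicates 1 to 3 and at 0.234, 0.104 and 0.256 in WT replicates 1 to 3. Duox2 is listed at 82.9, 90.4 and 64.1 in Tl1a-tg and at 0.355, 0.157 and 0.388 in WT. The spread within each genotype is the spread of the library factors, which ran from 0.591 to 1.46, and not of the gene. All levels below are therefore fitted means without an SD, scaled to a common depth and counted in reads per library, and the errors are those of the authors' DESeq2 fit. Column sums ran from 314186 to 774249, and are sums of fitted means, not read depths.

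No gene of the 9 passed the authors' test, and the fitted means showed 3 patterns. Reg3g, Sprr2a1 and Lif had at least 10 reads per library in both genotypes. Zfp36, Duox2, Duoxa2 and Tgm2 had such means in Tl1a-tg and less than 1 in WT, whereas Cxcl5 had less than 1 in Tl1a-tg and Lypd8 had 5.82 there against 197 in WT. Among the 4538 genes whose mean over both genotypes was at least 10, a limit that all 9 members met, 30.4% had 10 or more in both genotypes, as did 3 of the 9 members, and 62.4% had less than 1 in a genotype, as did 5 of the 9. An adjusted p-value below 0.05 was reached by 0 of the 4 members for which the authors gave one (Reg3g, Sprr2a1, Lypd8 and Zfp36), beside 3.67% of the 1662 genes so tested. With fitted means below 0.01 raised to the low value shared by genes without reads, 0 genes in all passed. The authors gave an unadjusted p-value for 5 members, and Zfp36 was the 1 of these below 0.05, beside 14.6% of 2580 genes. The log2 fold change was positive for 6 members and negative for 3, beside 55.6% positive among the same 4538 genes. The members' median of 1.36 is the value of Lif, against 0.68 over those 4538 genes and 0.13 over all 7120. It lay between 0.93 and 3.92 when each member was left out in turn, was 0.082 after apeglm shrinkage, and was 0.50 over the 3 members at 10 or more in both genotypes, against -0.38 over all genes so measured.

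**Figure D1:**
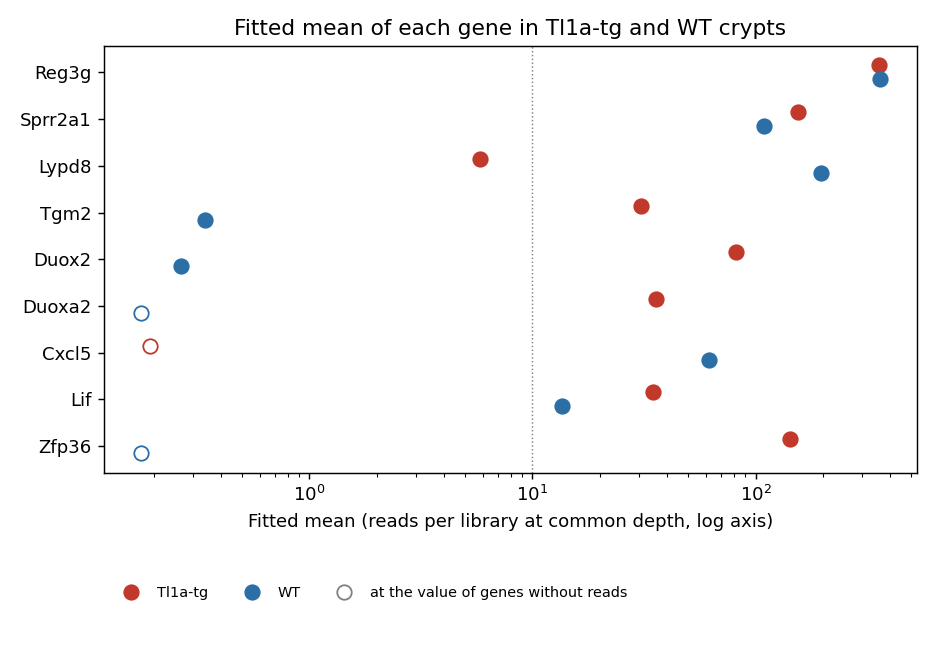
Fitted mean of each gene in reads per library, all scaled to a common depth (log axis), Tl1a-tg in red above WT in blue; open circles mark a genotype at the value shared by genes without reads, and the dotted line marks 10. Reg3g has 357 in Tl1a-tg and 360 in WT, while Zfp36 has 143 in Tl1a-tg and lies at the shared low value in WT.

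The secreted antibacterial proteins had the closest values. Reg3g, a C-type lectin that binds the peptidoglycan of Gram-positive bacteria, had 357 reads per library in Tl1a-tg, against 359.9 in WT. Its log2 fold change of -0.011 carried a standard error (SE) of 3.23 in the authors' deposited table, with a 95% interval of -6.33 to 6.31 and an adjusted DESeq2 p of 0.999. The interval spans large changes in either direction, so near-equal means do not show equal expression. Sprr2a1, a small proline-rich protein with antibacterial activity in the mouse gut, had 155 in Tl1a-tg and 109 in WT. For Sprr2a1 the authors' deposited table lists a log2 fold change of 0.50 (SE 3.17), an interval of -5.72 to 6.72 and an adjusted DESeq2 p of 0.999. Every deposited value of Sprr2a2 equalled that of Sprr2a1, and reads of identical copies can be split between them, so the level of either copy alone is uncertain.

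Lypd8, a surface protein that binds bacterial flagella in the mouse colon, differed from these in its direction. It had 5.82 reads per library in Tl1a-tg and 197 in WT, the lowest Tl1a-tg mean among the members other than Cxcl5. Its log2 fold change of -5.08 (SE 3.44) in the authors' deposited table had an interval of -11.82 to 1.66, with p = 0.14 and an adjusted DESeq2 p of 0.421. Tgm2, a transglutaminase that crosslinks and deamidates proteins, ran the other way, with 30.7 in Tl1a-tg, against 0.342 in WT. The authors' deposited table lists 6.49 for its log2 fold change (SE 4.35) with an unadjusted DESeq2 p of 0.136 and no adjusted one. The WT value of Tgm2 is shared, within 1%, by 333 genes, and lies under 1 read per library. Cxcr2, Rc3h1, Rc3h2, Cnot6l and Lgr5, named below, have this WT value too. The Tl1a-tg value of 0.375 given below for Il10rb and Gpx1 is likewise shared by other genes. Both values lie above those taken below to mean no reads.

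The oxidase and its maturation factor were both read in Tl1a-tg and hardly in WT. Duox2, which releases hydrogen peroxide at the cell surface, had 82.0 reads per library in Tl1a-tg, against 0.266 in WT. Duoxa2, without which DUOX2 does not leave the endoplasmic reticulum, had 36.0 in Tl1a-tg and no reads in WT. A genotype is described as without reads where its fitted mean lies within 1% of the low value shared by 1939 genes in Tl1a-tg or by 2981 genes in WT, or lies below 0.01, as it did for a further 499 genes in Tl1a-tg and 529 in WT but for no member. This reading is inferred from the values. The authors' deposited table lists log2 fold changes of 8.27 (SE 4.13) for Duox2 and 7.68 (SE 4.41) for Duoxa2. Against a genotype without reads such a value is set by how the model was fitted and bounds nothing. The authors gave no p-value for either gene.

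Cxcl5 and Lif, the secreted signals, had unlike patterns. Cxcl5, a chemokine that draws neutrophils through CXCR2, had no reads in Tl1a-tg, against 62.0 in WT, and -8.33 (SE 4.41) as its log2 fold change in the authors' deposited table. Lif, a cytokine of the interleukin 6 family, had 34.7 in Tl1a-tg, against 13.5 in WT. The authors' deposited table lists 1.36 (SE 4.26) as its log2 fold change, with an interval of -6.98 to 9.70. Neither has a deposited p-value. The authors' mean for Lif over the libraries of their model, 35.1, was high beside its fitted means: the mean of the 2 genotypes was 0.687 times it, against a median ratio of 6.09 over the 4538 genes, and 4.01% of those genes had a lower ratio. The other members had ratios of 2.74 or more. The dispersion ceiling given below lies above the 10 that DESeq2 sets when a model has up to 10 libraries, so that libraries other than these 6 may have entered the authors' fit, and their part in this mean was not tested.

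Zfp36 had the smallest p-value of the members. It encodes tristetraprolin, which binds AU-rich stretches in mRNAs such as that of Tnf and leads to their decay. Its fitted mean was 143 in Tl1a-tg, and it had no reads in WT. A log2 fold change of 9.67 (SE 4.41) with an interval of 1.03 to 18.31 stands in the authors' deposited table, with p = 0.0282 and an adjusted DESeq2 p of 0.23. Having no reads in exactly 1 genotype was common: Zfp36, Duoxa2 and Cxcl5 make 3 of 9 members, beside 52.3% of the 4538 genes.

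**Figure D2:**
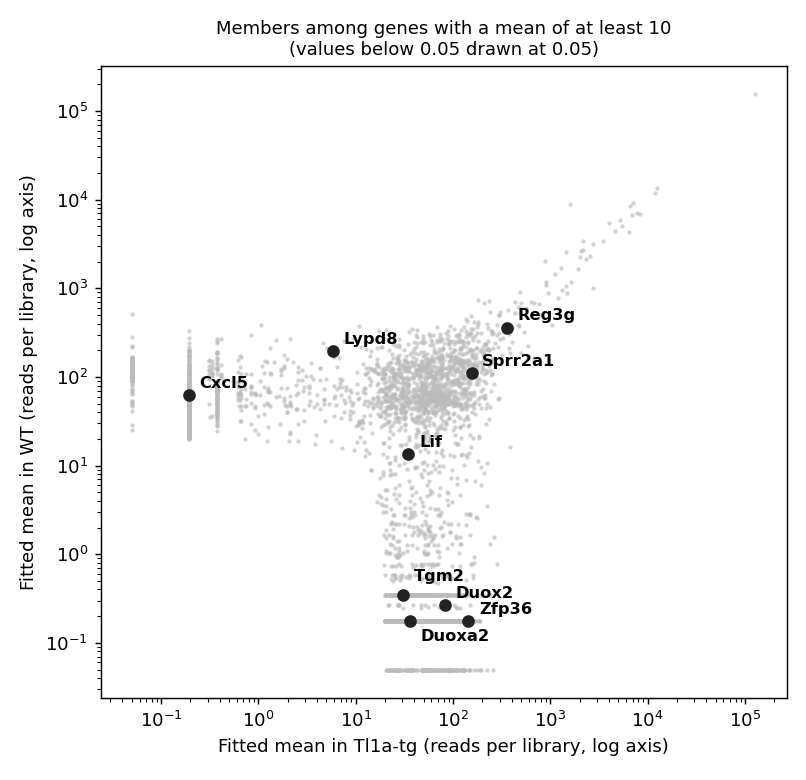
Fitted mean in Tl1a-tg (horizontal, log axis) against WT (vertical, log axis) for genes with a mean over both genotypes of at least 10 in grey (2 rows that share a name left out), with the 9 members in black and labelled. Members at the lower right had reads in Tl1a-tg and less than 1 in WT, a region they share with many other genes.

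Zfp36 is itself among the mRNAs that hold the heptamer its protein binds, TATTTAT in DNA letters. The heptamer was counted in the annotated 3′ untranslated region of the longest coding transcript (GENCODE M21, GRCm38), on the transcript strand only. It occurred 5 times in Lif, 3 times in Zfp36, 2 times in Sprr2a1 and 1 time each in Duox2 and Cxcl5, and not in Reg3g, Duoxa2, Lypd8 or Tgm2. At least 1 match was held by 55.2% of genes with such a region within 20% of the length of that of Lif, by 19.6% for the length of Zfp36 and by 27.3% for the length of Cxcl5. For the lengths of Sprr2a1 and Duox2 these shares were 48% and 29.9%. The 30 bases with the most matches are shown for the cytokine, the chemokine and Zfp36, 5′ to 3′ with the heptamer in capitals.
Lif: gtcTATTTATtactatgtccTATTTATatt
Zfp36: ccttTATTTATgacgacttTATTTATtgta
Cxcl5: aaactgtatacTATTTATtaattattaact
Of the members with the heptamer, Lif, Zfp36, Sprr2a1 and Duox2 had the higher fitted mean in Tl1a-tg and Cxcl5 had the higher one in WT. Of those without it, Duoxa2 and Tgm2 were higher in Tl1a-tg, Lypd8 was higher in WT and Reg3g was near-equal.

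The errors behind the fold changes were wide. Standard errors of the members ran from 3.17 to 4.41 on the log2 scale, so the narrowest 95% half-width was 6.22, a 74.6-fold difference, and smaller differences were not detectable. Solved from the standard errors, the dispersion lay at a ceiling of 13 for Duoxa2, Cxcl5, Lif and Zfp36, beside 68.7% of the 4538 genes; for these 4 the error follows from the ceiling and the means and does not estimate a measured spread. It was 7.49 for Reg3g, 7.25 for Sprr2a1, 8.44 for Lypd8, 11.3 for Duox2 and 12.6 for Tgm2. A p-value is missing for 4 members (Duox2, Duoxa2, Cxcl5 and Lif), as it is for 65.4% of the 4538 genes. By default DESeq2 withholds the p-value of a gene with a mean above 0 when the count of 1 library is extreme; whether this applied here was not tested. Shrunken by apeglm in the authors' other deposited table, log2 fold changes of the members lay between -0.24 for Lypd8 and 0.22 for Duoxa2.

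**Figure D3:**
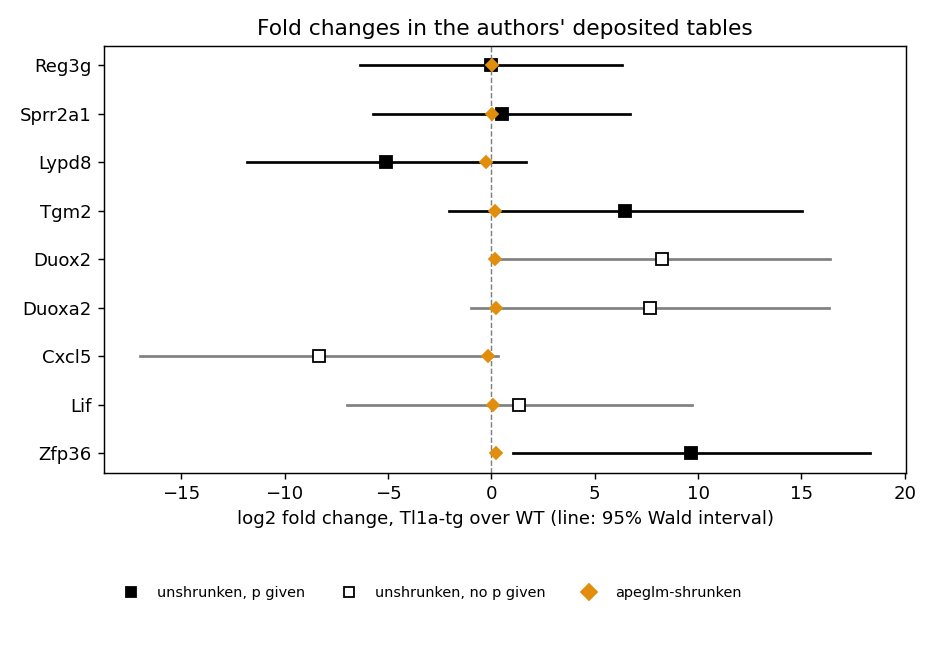
Log2 fold change (Tl1a-tg over WT) of each gene, with its 95% Wald interval (squares and lines; open squares have no deposited p-value) and the apeglm-shrunken value (diamonds), from the authors' deposited tables. All diamonds lie within 0.25 of 0, and the intervals of Duox2 and Zfp36 are the ones that do not reach 0.

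Set against transcript length, Reg3g was the most abundant member in both genotypes. Per kilobase of coding transcript (GENCODE M21; the authors' annotation is not given), its level was 463 reads per library in Tl1a-tg and 467 in WT. In Tl1a-tg, Zfp36 followed at 51.3 to 58.1, a range over its annotated transcripts, and overlapped Sprr2a1 at 51.5. Duoxa2 at 22.6 lay above Duox2 at 13.4 to 14.3. In WT the next level per kilobase after Reg3g was that of Lypd8, 161 to 180.0, then Cxcl5 at 39.3 and Sprr2a1 at 36.5. No spread between libraries is known, so neighbours in these orders cannot be told apart. Fewer cells of a type and less RNA per cell cannot be told apart in such bulk crypts either.

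By its pair of fitted means, the nearest other named genes to Reg3g were Fyco1 (404 in Tl1a-tg and 354 in WT) and P4hb (374 and 302), at distances of 0.179 and 0.26 on the log2(mean + 1) scale. To Sprr2a1 they were its copy Sprr2a2, at 0, and Ncor1, at 0.0341. Arfgef1 (5.10 in Tl1a-tg and 211 in WT) and Capza1 (5.96 and 168) lay nearest to Lypd8, at 0.191 and 0.23. Each distance rests on 2 values per gene.

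Genes of the same pathways were taken from 7 lists with 186 names, of which 73 were listed beside the members. Of these 73 genes, 28 had an adjusted p-value and 0 passed in either direction, beside 3.67% of all genes with one. With an unadjusted DESeq2 p below 0.05 there was 1, Lifr, among the 34 with a p-value, beside 14.6% over all genes. Log2 fold changes were positive for 42 and negative for 31, a positive share of 57.5%. This share has no lower limit on the mean, unlike the 55.6% above, which is over genes with a mean of at least 10. For 10 of the 73, without reads in either genotype, the sign carries no direction. Within the interleukin 6 and LIF family, 11 of 26 names were listed, 7 positive and 4 negative in log2 fold change. Both chains of the LIF receptor, Lifr with 111 and Il6st with 60.2 in Tl1a-tg, had no reads in WT, a state in 1 genotype that 52.3% of the 4538 genes shared. The chains of the interleukin 22 receptor ran the other way, Il22ra1 with 1.15 in Tl1a-tg and 110 in WT and Il10rb with 0.375 in Tl1a-tg and 58.2 in WT. The kinase gene Tyk2 had no reads in Tl1a-tg, against 61.4 for WT. Il22ra1, Il10rb and Tyk2 have no deposited p-value and were chosen after their values were seen. For Lifr the authors' deposited table lists a log2 fold change of 9.31 (SE 3.65) with p = 0.0107 and an adjusted DESeq2 p of 0.215, and for Il6st no p-value. Il11, a cytokine that uses Il6st, had 20.0 in Tl1a-tg and no reads in WT (p = 0.122), and the kinase gene Jak1 had 58.8 in Tl1a-tg and 119 in WT (unadjusted DESeq2 p = 0.769), both p-values from the authors' deposited table.

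Secreted antimicrobial and acute phase genes had 8 of 22 names listed and all 8 at 10 or more in both genotypes, 2 positive and 6 negative. Saa4, a serum amyloid A apolipoprotein, had 63.2 in Tl1a-tg, against 148 in WT, and the peptidoglycan-recognition protein Pglyrp1 had 194 and 310. The lectin Itln1 had 3983 in Tl1a-tg and 5420 in WT, the angiogenin Ang4 6603 and 8481, and the lectin Reg4 1996 and 2244. Reg3b, the near relative of Reg3g, was not analysed here. The oxidase and peroxide list had 8 of 14 names listed, 2 positive and 6 negative. The glutathione peroxidases had 75.5 in Tl1a-tg and 176 in WT for Gpx2, and 0.375 in Tl1a-tg and no reads in WT for Gpx1, and the peroxiredoxin Prdx6 had 74.5 in Tl1a-tg and 134 in WT. Duox1 and Duoxa1, the second oxidase pair, were not analysed here. Of the small proline-rich and transglutaminase list 2 of 21 names were listed, the copy Sprr2a2 and Sprr2b, which had 20.0 in Tl1a-tg and no reads in WT (chosen after its values were seen).

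**Figure D4:**
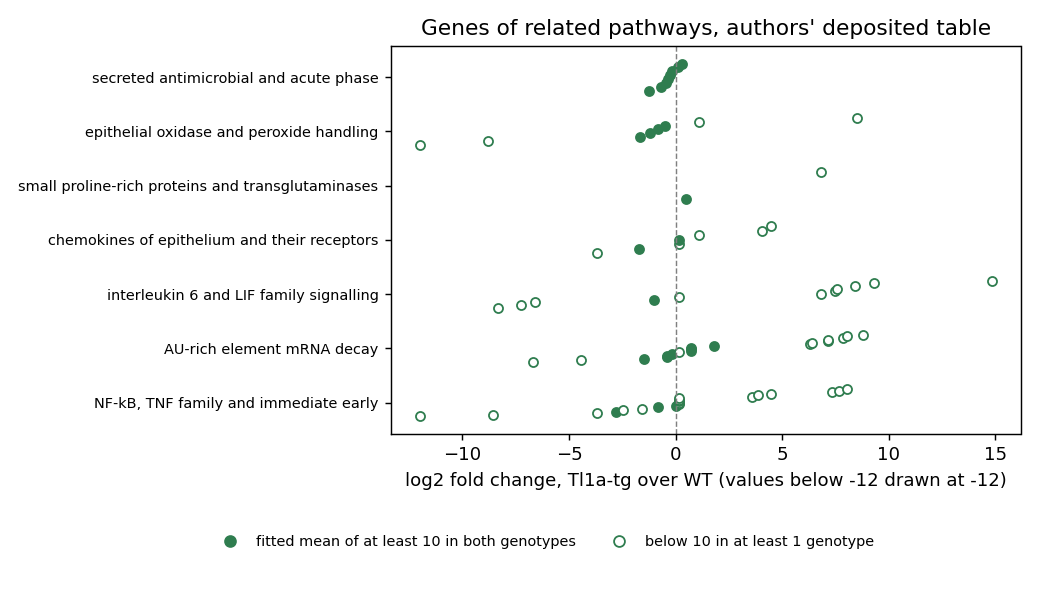
Log2 fold change (Tl1a-tg over WT) in the authors' deposited table for each listed gene of the 7 pathway lists, filled where the fitted mean was at least 10 in both genotypes and open otherwise. Filled points run from -2.80 (Rela) to 1.81 (Cnot1), and the points beyond these are open.

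Chemokines and their receptors had 7 of 33 names listed, 5 positive and 2 negative, with 2 of the 7 without reads in either genotype. Cxcr2, the receptor of Cxcl5, had 7.57 in Tl1a-tg and 0.342 in WT, a difference opposite in direction to that of its ligand (unadjusted DESeq2 p = 0.312 in the authors' deposited table). Ccl9 had 88.6 in Tl1a-tg and 292 in WT, Ccl6 had 207 and 186, and Cxcl16 had no reads in either genotype. Genes of AU-rich mRNA decay had 18 of 25 names listed, 12 positive and 6 negative, with 1 of the 18 without reads in either genotype. The relatives of Zfp36 were read in both genotypes, Zfp36l1 with 91.8 in Tl1a-tg and 55.3 in WT and Zfp36l2 with 99.98 and 131. The mRNA-binding ubiquitin ligases Rc3h1 and Rc3h2 had 28.4 and 48.9 in Tl1a-tg and 0.342 each in WT. Among deadenylase subunits, Cnot6l had 27.3 in Tl1a-tg against 0.342 in WT, and the scaffold Cnot1 had 244 and 69.5. The poly(A)-binding protein Pabpc1 had 1474 in Tl1a-tg and 888 in WT.

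The NF-kB, tumour necrosis factor family and immediate early list had 19 of 45 names listed, 12 positive and 7 negative. For 6 of the 19, without reads in either genotype, the sign carries no direction. Rela, an NF-kB subunit, had 34.2 in Tl1a-tg and 238 in WT. Of the AP-1 subunits, Jun had 3.94 in Tl1a-tg against 22.0 in WT and Jund had 94.2 and 166. Fos had no reads in Tl1a-tg, against 73.9 in WT. Other genes of the list ran the other way, such as Chuk with 54.1 in Tl1a-tg and 4.51 in WT. Traf6 had 35.4 and Atf3 had 45.5 in Tl1a-tg, both with no reads in WT. Fos, Chuk, Traf6 and Atf3 have no deposited p-value and were chosen after their values were seen. The NF-kB regulator Nfkbiz and the receptor Tnfrsf1b lay at the shared low value in both genotypes. Tnfsf15 lay below 0.01 in both, so the transgene could not be checked with it; a transgene can lack the part that is counted.

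Markers of several cell types were compared, since the members are made by different crypt and villus cells. Paneth markers, 10 of 10 listed, summed to 45027 reads per library in Tl1a-tg and 46014 in WT, goblet markers (6 of 9) to 20659.8 and 20465, and stem cell markers (7 of 8) to 1496 and 1489.8. The goblet and stem cell sums were led by Muc2, Spink4 and Olfm4, and some markers with lower means lay far apart between genotypes. Lgr5 had 131 in Tl1a-tg and 0.342 in WT, Prom1 64.2 in Tl1a-tg and no reads in WT, and Agr2 186 in Tl1a-tg and no reads in WT, with unadjusted DESeq2 p-values of 0.0198, 0.0303 and 0.0226 and an adjusted p of 0.23 each in the authors' deposited table. Lrig1 was without reads in Tl1a-tg, against 27.0 for WT. Absorptive enterocyte markers (7 of 15) summed to 319 in Tl1a-tg and 189 in WT, with Vil1 at 138 and 12.6 and Apoa1 below 0.01 in both genotypes. The list had 4 positive and 3 negative log2 fold changes, with Cdhr2 at 69.1 in Tl1a-tg and 131 in WT, and without Vil1 it summed to 181 in Tl1a-tg and 177 in WT. Neutrophil markers came to 11.2 in Tl1a-tg and 0.919 in WT over the 2 of 12 listed, Cxcr2 and Csf3r. Macrophage markers (4 of 12) summed to 11.7 in Tl1a-tg and 3.33 in WT, lymphoid T and innate markers (3 of 15) to 51.3 and 166, B and plasma cell markers (3 of 11) to 78.5 and 1.29, and stromal markers (5 of 12) to 200.2 and 54.8. No marker passed the authors' adjusted threshold, and the part of other cell types in the members' values was not tested.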

How the data were processed

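The submitters' processing notes name DESeq2, RSEM 1.2.15, Bowtie2 2.1.0, Trimmomatic and FastQC, without a role or an order; the genome build is not given in the sources used here. The deposited signal is 1 fitted mean per gene and genotype times a library factor, found by comparing columns within a genotype. The authors' deposited tables give a mean signal over libraries, log2 fold changes, standard errors, a Wald score, p-values and adjusted p-values from DESeq2, and apeglm-shrunken log2 values. Library factors were scaled to a geometric mean of 1, 95% intervals were computed as Wald intervals, and dispersions were solved from the standard errors (Python 3.11.15, SciPy 1.17.1), after a check on simulated data. Missing p-values were kept missing. No read counts were used, so depth is unknown, no counting interval is given and no test could be refitted. The members and lists were chosen with earlier results of these data known. Named by a set rule are all members, their direct partners, up to 5 genes of each list with the smallest p-values, and the 2 genes nearest to each of the 3 most abundant members. Further genes marked above were chosen after their values were seen. Tnfsf15 and the single cell type markers were also named outside this rule. Rows without gene names were not present, apart from dates in place of names, which were not named.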

Additional observations from a re-analysis of the deposited data

How the results depend on the processing

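With an unadjusted p below 0.05 in the authors' table, 1 member (Zfp36) and 1 related gene (Lifr) passed, against 0 and 0 with adjustment; with near-0 fitted means at the floor, 0 members, 0 related genes and 0 genes in all passed, and the adjusted p of Zfp36 was 0.248. Of 54 single-member values under other settings, 51 kept their direction. Values with a pseudocount could not turn, nor could those at the floor, as no member had a near-0 mean. Those that turned were all of Reg3g, whose log2 fold change became 0.013 when shrunken by apeglm, 0.083 with equal totals without Rn45s and 0.37 with the median of the genes measured in both genotypes, -0.38, set to 0; the cause was not tested. Under the last 2 of these settings 7 members, not 6, were higher in Tl1a-tg. The members' median of 1.36 became 0.93 with both Sprr2a copies counted, 0.082 when shrunken, 0.93 with a pseudocount of 10, 0.50 over members measured in both genotypes and 1.74 after centring, and lay between 0.93 and 3.92 when each member was left out in turn. It was 1.30 with a pseudocount of 1. No paired analysis was possible because the deposited values hold no spread between libraries, and leaving out a library was not run for the same reason.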
